A study of Mus musculus with 12 samples.

Results

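The genes described here are 8 enzymes of heme synthesis, Alas1, Alas2, Alad, Uros, Urod, Cpox, Ppox and Fech, together with Por, the reductase that feeds electrons to heme-containing enzymes of the endoplasmic reticulum. They were taken by symbol from count tables of 23420 gene symbols, in which all 9 were found. They were chosen by pathway and by measured CPM, in view of the high Alas2 level in males. Levels of males set against females are therefore descriptions and carry no test. The difference of the genotype effects between the sexes was tested, and for Alas2 it contains the levels behind the choice.

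Liver RNA was profiled in 12 mice, 3 of each sex and genotype, with the Lexogen QuantSeq kit, which counts transcripts from their 3′ ends. The groups were wild type (WT) females, Siah2-/- (KO) females, WT males and KO males, all on a C57BL/6 background, aged about 20 weeks, with livers taken at ZT10, which is 10 h after lights on. SIAH2 is a ubiquitin ligase, and the question was whether its loss changes liver transcripts in either sex. The deletion is present in every cell of the KO mice, and KO and WT mice came from related homozygous lines founded from an intercross of heterozygotes, so line and genotype cannot be told apart. The study describes the RNA as coming from individual livers, whereas the sample labels speak of RNA pooled from 3 mice. Each library is called a mouse here, and p-values measure the spread between these libraries.

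Libraries held between 1293688 and 4056144 counts. Levels are in CPM, the counts as a rate of each library's total, placed on 1 scale over the 12 mice by edgeR's TMM factors, and errors are standard deviations over 3 mice. Hepatocyte marker sums overlapped between all groups and lay between 46493 and 67601 CPM. Siah2 itself was at 13.7 ± 2.69 CPM in WT females and 10.6 ± 1.55 in KO females, and at 21.6 ± 5.18 CPM in WT males and 13.7 ± 3.98 in KO males. The groups overlapped in either sex. The log2 fold change of KO over WT was -0.34 in females and -0.67 in males, with unadjusted edgeR p-values of 0.284 and 0.0374. The edgeR adjusted p-values were 0.641 in females and 0.9999 in males. No source used here says whether the deletion removes the counted 3′ end of Siah2, and the genotype is therefore not checked by these values. Leaving out WT female 1091 changed the number of genes called in females more than leaving out any other mouse. How far its library lies from the others was not measured. Without that library, the number of genes called in females rose from 0 to 936 of all genes tested, so results of the 9 genes in females are also given without it where the call or the direction changes.

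Heme is made in steps that begin and end in mitochondria. The first step, which joins glycine and succinyl-CoA to give aminolevulinate, limits the rate and is carried out by 2 enzymes from separate genes. ALAS1 is the form of liver and most other tissues and is held down by heme itself, while ALAS2 is the form of developing red cells. The liver uses most of its heme for cytochrome P450 enzymes, which receive electrons from POR. Heme is also a ligand of REVERBα, the clock repressor that the study set out from.

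Promoter sequences are shown for the 2 genes on which the results turn, Alas2 for its level in males and Alas1 for its level in KO females. Each is the 250 bases before the RefSeq start in the GRCm38.p6 assembly, and capitals mark matches to 4 short motifs searched on both strands. The Alas2 gene lies on chromosome X at 150547417 to 150570622, and its window is chrX:150547167-150547416 on the forward strand. The Alas1 gene lies on chromosome 9 at 106233455 to 106247954, and its window is chr9:106247955-106248204 on the reverse strand.
Alas2: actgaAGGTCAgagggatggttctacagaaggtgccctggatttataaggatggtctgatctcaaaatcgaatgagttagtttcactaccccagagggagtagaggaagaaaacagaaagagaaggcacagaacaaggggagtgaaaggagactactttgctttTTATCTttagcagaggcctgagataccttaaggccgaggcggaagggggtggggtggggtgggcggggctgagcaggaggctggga
Alas1: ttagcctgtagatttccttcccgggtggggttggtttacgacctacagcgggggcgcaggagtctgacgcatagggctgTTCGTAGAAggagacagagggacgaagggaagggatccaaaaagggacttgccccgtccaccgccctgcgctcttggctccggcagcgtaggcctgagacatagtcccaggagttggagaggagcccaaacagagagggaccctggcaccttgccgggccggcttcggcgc
In the Alas2 window, TTATCT is the reverse-strand form of AGATAA, the motif of GATA factors, which drive red cell genes, and starts 86 bases before the gene. AGGTCA, a half-site of nuclear receptors, starts 245 bases before it. The Alas1 window holds 1 match to the motif of STAT factors, TTCNNNGAA, which carry cytokine and growth hormone signals, 171 bases before the gene, and none to AGATAA or AGGTCA. Neither window holds the E-box CACGTG, to which clock activators bind. Among 32851 RefSeq promoter windows of this length, 9.99% hold AGATAA, 14% hold AGGTCA, 7.02% hold TTCNNNGAA and 6.02% hold CACGTG. These matches describe the letters of the windows and say nothing of binding.

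Alas2 was several-fold higher in male than in female livers of both genotypes. WT males had 104, 83.4 and 85.8 CPM and KO males 138, 101 and 153 CPM. WT females had 20.7, 24.9 and 21.3 CPM and KO females 17.7, 8.39 and 19.0 CPM. All 6 males were above all 6 females, with 83.4 CPM in the lowest male and 24.9 CPM in the highest female. The group means were 91.0 ± 11.1 in WT males, 131 ± 26.9 in KO males, 22.3 ± 2.28 in WT females and 15 ± 5.76 in KO females (SD, n = 3 each). Males were 4.08-fold above females in wild type and 8.71-fold above in KO mice. The order of the groups from the highest was KO males, WT males, WT females and KO females. The neighbours KO and WT males overlapped, since 101 CPM in KO male 1076 was below 104 CPM in WT male 1055.

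Among the 9806 genes tested over all 12 mice, 65 had a larger log2 difference of males over females than Alas2 in wild type and 33 in KO mice. A full separation with males higher was seen in 2.27% of these genes, and with males lower in 2.14%. Of the 9 genes, 1 showed the first, Alas2, and 0 the second. Its counts were 137 to 626 in males and 23 to 84 in females, well above the 3 counts taken as the limit of detection. At each sex's shallowest library the 95% Poisson interval of the CPM ran from 87.1 to 123 in WT male 1055 and from 13.0 to 26.8 in KO female 1105, which covers counting error only.

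**Figure D1:**
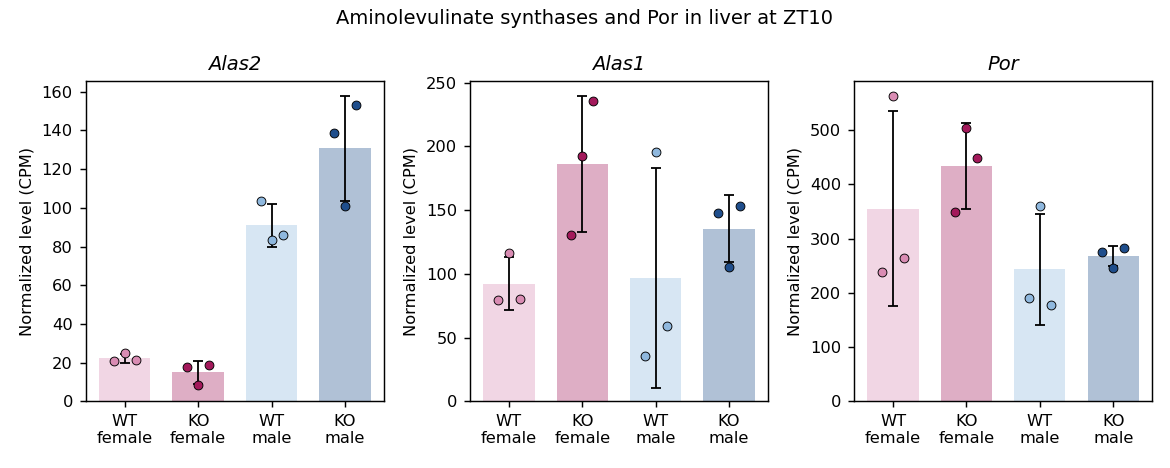
Levels of Alas2, Alas1 and Por in CPM in each of the 12 mice, with a panel per gene; points are mice, bars the mean and error bars the SD of 3 mice. Alas2 in the 6 males lies between 83.4 and 153 CPM, above the 6 females at 8.39 to 24.9 CPM, whereas Alas1 and Por overlap between the sexes.

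Because developing red cells transcribe Alas2, red cell markers were examined beside it. Of 24 markers, 22 were in the tables, and 7 of these were at 0 in every mouse, namely Hba-a1, Hba-a2, Hbb-b1, Hbb-b2, Epb4.2, Cldn13 and Trim58. Beta-s had 9526 counts over the 12 mice while both alpha globin symbols had 0, so the zeros are not read as absent transcripts. Whether reads that match several globin genes were counted was not examined. The summed marker level was 266 to 669 CPM in WT females, 249.96 to 316 in KO females, 207 to 430.0 in WT males and 219 to 320.1 in KO males. These ranges overlapped between the sexes. Most of the sum was Beta-s, an adult beta globin, followed by Bpgm, which makes the red cell metabolite bisphosphoglycerate, and Klf1, a red cell transcription factor. Without Beta-s and Bpgm the sum was 4.72 to 13.9 CPM in WT females, 6.57 to 15.4 in KO females, 8.33 to 11.99 in WT males and 4.84 to 5.53 in KO males, which were below all WT males.

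Beta-s was at 408 ± 199.6 CPM in WT females, 234 ± 31.7 in KO females, 259 ± 112 in WT males and 226 ± 55.0 in KO males, with all groups overlapping. Alas2 amounted to 22.1 to 84.7 counts per 100 Beta-s counts in the males and to 3.19 to 9.47 in the females. Beyond the red cell, summed Kupffer cell markers were 106 to 690.2 CPM in WT males and 125 to 279 in KO males, against 531 to 740 in WT females and 420.4 to 978 in KO females. Lymphocyte and neutrophil markers summed to 0.499 to 3.40 CPM in males and 5.11 to 15.2 in females. The part that red cells and these cells have in the Alas2 level or in any difference between the sexes was not tested, and in whole liver fewer cells of a type and less RNA per cell cannot be told apart.

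**Figure D2:**
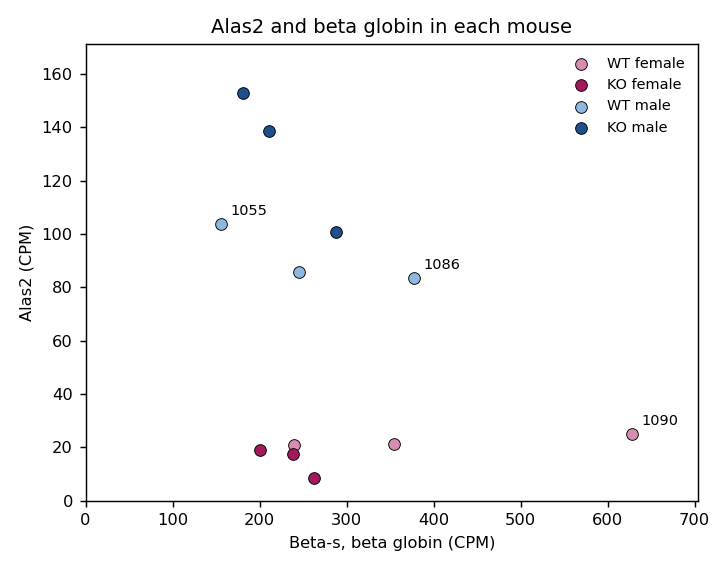
Alas2 against Beta-s, an adult beta globin, both in CPM, with a point per mouse coloured by sex and genotype. The males lie above the females at like Beta-s levels, and WT female 1090 has the highest Beta-s, at 629 CPM, with 24.9 CPM of Alas2.

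The Alas2 gene overlaps Apex2, a DNA repair gene, and Mir3620 in RefSeq, and no source used here says whether strand was used in counting. Apex2 was at 1.48 to 6.05 CPM over the 12 mice, with 3 to 17 counts a library.

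The genotypes were also compared for Alas2, and neither sex gave a difference that passed the test. In females all 3 KO mice were below all 3 WT mice, a separation seen with KO lower in 12.8% of genes, and in males 2 of 3 KO mice were above every WT mouse. The log2 fold change of KO over WT was -0.57 ± 0.33 (SE) in females, with an edgeR adjusted p of 0.446. In males it was 0.53 ± 0.18, with an unadjusted p of 0.0126 and an adjusted p of 0.9999 by edgeR. The difference of the effects, females minus males, was -1.10 ± 0.37 on the log2 scale, with an edgeR adjusted p of 0.191 and an unadjusted p of 0.00984. DESeq2 gave an adjusted p of 0.100 for the same difference. When WT female 1091 was left out, DESeq2 gave 0.0347 and edgeR 0.0741, so the call turned on that library and on the tool. The difference of the effects contains the male levels for which Alas2 was chosen, so its p-values are not read as support. Leaving out KO female 1104, which had the lowest Alas2 of all mice, brought the female fold change from -0.57 to -0.28.

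The 2 synthase genes were also compared as shares of their joint counts. Since 3′ counting gives about the same number of reads to a short as to a long transcript, no length correction was applied, and the share is read only between mice. Alas2 made up 29.9% to 74.5% of the Alas1 and Alas2 counts in the males and 4.17% to 20.9% in the females. The highest share was in WT male 1055, at 74.5% (95% Wilson interval 67.7 to 80.2), and the lowest male share in WT male 1086, at 29.9% (26.3 to 33.9). The 3 KO males were close together, at 48.4%, 48.9% and 49.9%. In WT females the shares were 20.6%, 17.6% and 20.9%, and in KO females they were 11.9%, 4.17% and 7.44%. All KO females were below all WT females in this share. That follows from the levels of the 2 genes, since KO females were all higher in Alas1 and all lower in Alas2, and it adds no further result. The shares of males likewise contain the Alas2 level for which the genes were chosen.

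Alas1, the synthase of hepatocytes, was about 2 times as high in KO as in WT females. WT females had 79.8, 117 and 80.6 CPM and KO females 130.2, 193 and 236 CPM. The lowest KO female was above the highest WT female, a separation seen with KO higher in 10.6% of the 9465 genes tested in females. The means were 92.3 ± 21.0 CPM in WT and 186 ± 53.1 CPM in KO females (SD, n = 3 each). The log2 fold change was 1.02 ± 0.29 (SE) with an unadjusted p of 0.00554. Adjusted over all genes tested, edgeR gave 0.142 and limma-voom 0.147, which miss the threshold of 0.05, and DESeq2 gave 0.0367, which passes it. DESeq2 called 3.7% of the genes it tested in females and edgeR called 0%, so Alas1 was among a small share of genes called by 1 of these tools. Leaving out single mice kept the fold change between 0.80 and 1.24, and the lowest edgeR adjusted p was 0.0563, without WT female 1091.

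In males, Alas1 varied more among WT mice than between the genotypes. WT males had 35.6, 195 and 58.9 CPM and KO males 147, 105 and 154 CPM. WT male 1086 was above every KO male, and the other 2 WT males were below them all. The log2 fold change was 0.47 ± 0.42, with an edgeR adjusted p of 0.9999. It was 1.49 without WT male 1086, with an adjusted p of 0.0572, and 0.12 without WT male 1055. The difference of the female and male effects was 0.54 ± 0.61, with an edgeR adjusted p of 0.762, and was -0.49 without WT male 1086. An effect particular to females was therefore not shown for Alas1. With both sexes fitted together and sex as a term, the log2 fold change was 0.76 ± 0.31 with an edgeR adjusted p of 0.690.

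**Figure D3:**
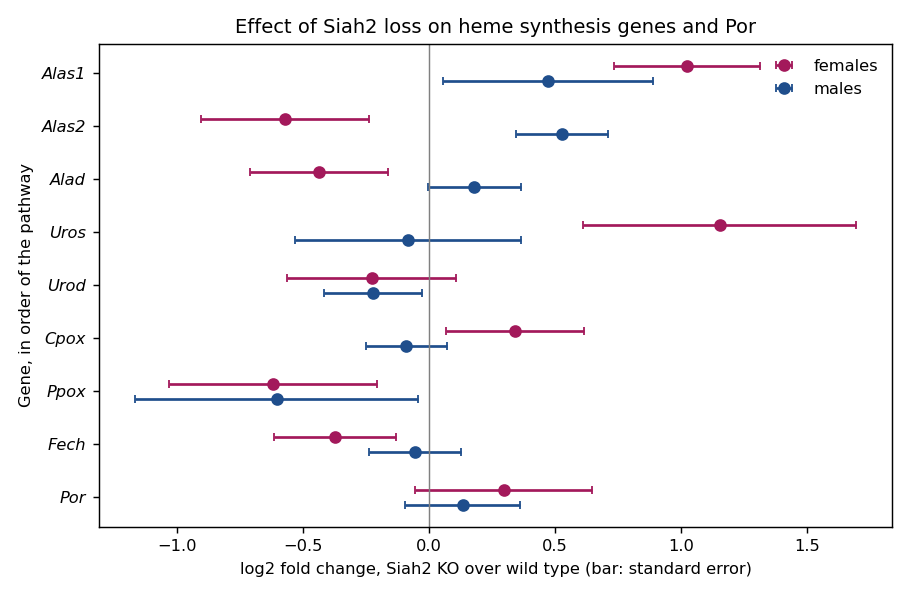
Log2 fold change of KO over WT in females and in males for the 9 genes, ordered along the pathway with Por last; points are edgeR estimates and bars their standard errors. Alas1 lies at 1.02 in females and 0.47 in males, while Alas2 lies at -0.57 in females and 0.53 in males.

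Over the 9 genes, edgeR called 0 in females, in males, with both sexes together and for the difference between the sexes. The same test called 0%, 0%, 0.0102% and 0.255% of all genes in those comparisons. At an unadjusted p under 0.05 it marked 1 of the 9 in each, which was Alas1 in females and with both sexes together, and Alas2 in males and for the difference. Of all genes tested, 15.6%, 4.05%, 7.2% and 14.1% reached that level. DESeq2 called 1 of the 9, Alas1, in females and 0 in the other comparisons, where it called 0.037% of all genes in males, 0.0112% with both sexes together and 3.32% for the difference. The median log2 fold change of the 9 was -0.23 in females, beside -0.03 over all genes tested, and -0.05 in males, beside -0.01. A fold change above 0 was found for 4 of the 9 in females and 4 in males, beside 47.3% and 48.1% of all genes. In males 0 of the 9 were separated between the genotypes, beside 4.24% of genes with KO higher and 4.69% with KO lower.

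For each enzyme that follows aminolevulinate synthase, KO and WT mice overlapped in both sexes. Among KO mice, all 3 males were above all 3 females for Alad and Fech and below them for Urod and, narrowly, Uros, while the WT males and females overlapped for each. Such a separation of KO mice was found with males higher in 14.6% of all genes tested and with males lower in 14.9%, and nothing is read from the count. Alad, which joins 2 molecules of aminolevulinate to porphobilinogen, was at 116, 92.9 and 187 CPM in WT females and 98.9, 107 and 80.6 CPM in KO females. In males it was at 139 in WT male 1055, 97.9 and 96.5 CPM in the other WT mice, and 115, 114 and 145 CPM in the KO mice. WT female 1091 was the highest of all 12 mice. Its log2 fold change was -0.44 ± 0.27 in females and 0.18 ± 0.18 in males, with edgeR adjusted p-values of 0.488 and 0.9999. Without WT female 1091 the female value was -0.13.

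Uros closes the ring and had only 6 to 38 counts a library. WT females had 7.51, 2.67 and 2.36 CPM of Uros and KO females 5.98, 13.9 and 7.70 CPM. In males Uros was at 4.54, 3.00 and 8.55 CPM in WT and 5.96, 5.95 and 4.396 CPM in KO mice. The female groups overlapped through WT female 1089, and the log2 fold change of 1.15 ± 0.54 had an edgeR adjusted p of 0.345. Uros overlaps Bccip in RefSeq, whose KO females, at 51.3 ± 3.06 CPM, were all above the WT females, at 18.7 ± 11.6 CPM. Reads of the 2 genes may not be told apart where strand was not used, and the share of Bccip in the Uros value was not tested.

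Urod, which trims the side chains of the ring, was at 36.1, 46.6 and 98.2 CPM in WT females and 47.8, 51.1 and 52.1 CPM in KO females. WT female 1091 was again the highest of all 12 mice, and the other 2 WT females were below all KO females. Accordingly the log2 fold change was -0.23 ± 0.33 with that mouse and 0.27 without it, and neither was called by edgeR. In males Urod lay between 38.1 and 52.2 CPM, with a log2 fold change of -0.22 ± 0.19. Urod lies on chromosome 4 at 116989965 to 116994436 and Alad on the same chromosome at 62505984 to 62520063.

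Cpox, the next enzyme, encoded on chromosome 16 at 58670208 to 58680391, lay between 298 and 534 CPM over the 12 mice. WT females had 299, 395 and 338 CPM and KO females 298, 534 and 459 CPM, so that 2 of 3 KO females were above every WT female and 1 was below them all. Fold changes of KO over WT were 0.34 ± 0.27 in females and -0.09 ± 0.16 in males on the log2 scale, with edgeR adjusted p-values of 0.605 and 0.9999. Ppox, which oxidizes the ring to protoporphyrin, had 6 to 31 counts a library and levels of 3.55 to 18.2 CPM. The highest value was in WT male 1055, and the next highest of all mice was 9.20 CPM in WT female 1090. Its log2 fold change was -0.62 ± 0.41 in females and -0.61 ± 0.56 in males, and the male value became 0.24 without that mouse.

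Fech inserts the iron and so completes heme. It was at 50.8, 54.3 and 81.3 CPM in WT females and 51.1, 42.7 and 48.0 CPM in KO females. WT males had 63.6, 50.4 and 59.8 CPM and KO males 52.9, 62.5 and 52.5 CPM. WT female 1091 had the highest Fech of all mice, as it had the highest Alad and Urod. For KO over WT the log2 fold change was -0.37 ± 0.24 in females and -0.05 ± 0.18 in males, and edgeR called neither, with adjusted p-values of 0.505 and 0.9999. For the 8 genes other than Alas2, the log2 difference of males over females in wild type was under 1 in size.

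**Figure D4:**
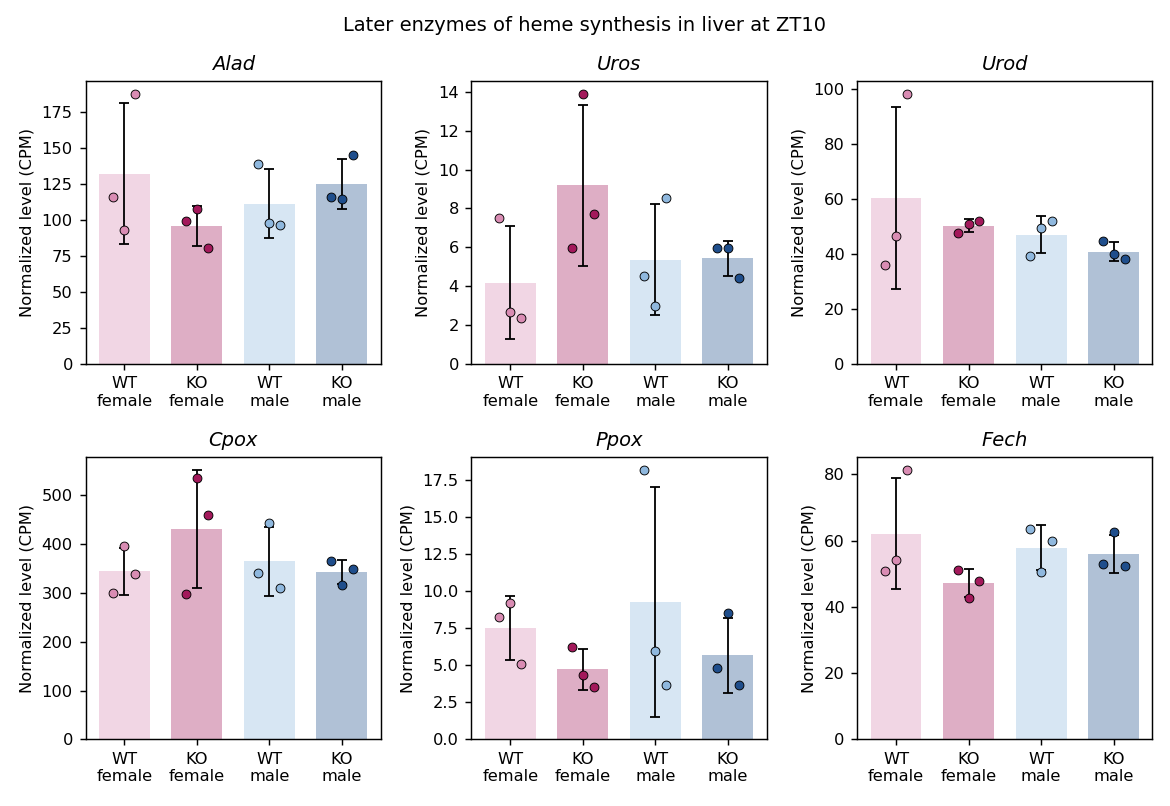
Levels of Alad, Uros, Urod, Cpox, Ppox and Fech in CPM in each mouse, with a panel per gene; points are mice, bars the mean and error bars the SD of 3 mice. KO and WT mice of the same sex overlap in every panel, and the highest Alad, Urod and Fech values, 187, 98.2 and 81.3 CPM, come from WT female 1091.

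Por, which passes electrons from NADPH to cytochrome P450 enzymes, heme oxygenase and squalene monooxygenase, was at 239, 562 and 264.5 CPM in WT females and 349, 504 and 448 CPM in KO females. WT males had 190.7, 360.1 and 179 CPM and KO males 275, 246 and 283 CPM. In both sexes 1 WT mouse was above every KO mouse, and the other 2 WT mice were below the KO mice. The gene lies on chromosome 5 at 135670040 to 135735326, where RefSeq also places Gm16061 and Gm40345. The log2 fold change was 0.30 ± 0.35 in females and 0.13 ± 0.23 in males, with edgeR adjusted p-values of 0.742 and 0.9999. Without WT female 1090 the female value was 0.81, and without WT female 1089 it was 0.08. The log2 difference of males over females was -0.53 in wild type and -0.69 in KO mice, where all 3 KO males were below all 3 KO females, as in 14.9% of all genes.

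The mice with the highest and lowest Alas1 in each group were compared with those for Por. WT female 1090 and WT male 1086 had the highest level of both genes in their groups, and KO male 1081 did so in its group. The same mouse had the highest value of both in 3 of 4 groups and the lowest of both in 3 of 4. This was not particular to Por, since Alas1 and Alas2 shared their highest mouse in 3 of 4 groups and their lowest in 2. Por and Cpox shared their highest mouse in 3 of 4 groups and their lowest in all 4. Alas1 and Cpox shared their highest mouse in 2 groups and their lowest in 3. The pairs among Alad, Urod and Fech were also compared. The highest mouse was the same in 1 group for Alad and Urod, 2 for Alad and Fech and 1 for Urod and Fech. The lowest was the same in 0, 0 and 2 groups. These counts are descriptions of 3 mice a group, whose libraries differ in depth. The share over all pairs of genes was not computed, and nothing is read from the counts.

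**Figure D5:**
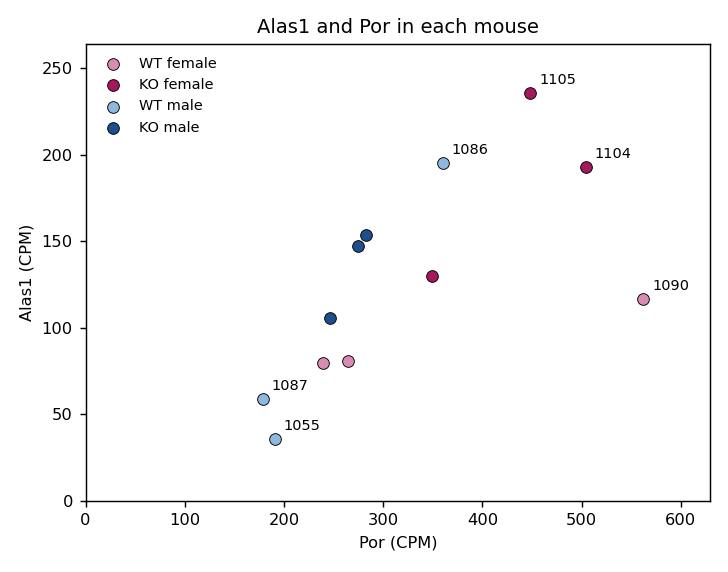
Alas1 against Por, both in CPM, with a point per mouse coloured by sex and genotype. WT male 1086 lies apart from WT males 1055 and 1087 in both genes, and WT female 1090 has the highest Por, at 562 CPM, with 117 CPM of Alas1.

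Genes with the most similar profile were found by Pearson's r of log2(CPM + 1) over the 12 mice. Mice of a group share sex and genotype, so the values are descriptions. For Alas2 they were Cyp2d9 (r = 0.98), a steroid hydroxylase of male mouse liver, Fam210a (0.98) and Serpine2 (0.98), a protease inhibitor. For each of these 3 genes all males were above all females, with log2 differences in wild type of 4.64, 0.63 and 2.33. For Alas1 they were Fkbp5 (0.91), a target of the glucocorticoid receptor, Dnajc24 (0.90) and Zfp39 (0.88), and for Por they were Tor1a (0.89), Gpr116 (0.88) and Sla (0.88). After each group's mean was subtracted, different genes came first. They were Dpy19l3 (0.96), Slc2a4rg-ps (0.91) and 1110034G24Rik (0.88) for Alas2, B230208H11Rik (0.94), Ston2 (0.92) and Jam2 (0.91) for Alas1, and Tbc1d8 (0.97), D5Ertd579e (0.93) and Pdzrn3 (0.92) for Por. Of these 18 genes, 8 had 3 counts or fewer in at least 1 library, namely Dnajc24, Zfp39, Sla, Dpy19l3, 1110034G24Rik, B230208H11Rik, Ston2 and Jam2.

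The remaining genes of the pathway were read as lists beside the 9 genes. Among 20 genes of heme and mitochondrial iron transport, 1 was higher and 4 were lower in KO females at an unadjusted p under 0.05, 0 were so in the 19 tested in males, and edgeR called none after adjustment. Of all genes, 15.6% reached that level in females and 4.05% in males, and the median of the list in females was -0.20, beside -0.03 over all genes. Slc48a1, a heme transporter, was at 38.0 ± 7.29 CPM in WT and 18.2 ± 5.35 in KO females, with a log2 fold change of -1.03 and an edgeR adjusted p of 0.141. Slc46a1, a folate transporter that also carries heme, was at 16.0 ± 0.816 CPM in WT and 7.56 ± 2.20 in KO females, with a log2 fold change of -1.10 and an adjusted p of 0.158 by edgeR. In both genes the KO females were all below the WT females. Of the 4 genes of heme breakdown tested in females, Hmox1, the inducible heme oxygenase, had a log2 fold change of -1.75 with an edgeR adjusted p of 0.303, on only 0 to 24 counts a library.

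Among 11 known regulators of Alas1 tested in females, 1 was higher and 1 lower in KO mice at an unadjusted p under 0.05. Of all genes, 15.6% reached that level in females. The median log2 fold change of the list was -0.04, beside -0.03 over all genes. Nr1i2, the xenobiotic receptor PXR, was at 137 ± 38.7 CPM in WT and 65.1 ± 10.4 in KO females. Its log2 fold change was -1.05, and its adjusted p was 0.121 under edgeR and 0.0320 under DESeq2. Nrf1, a factor for genes of mitochondria, had a log2 fold change of 0.87 with an edgeR adjusted p of 0.263. In males Ppargc1a, the coactivator PGC-1α, was at 52.1 ± 7.31 CPM in WT and 33.0 ± 3.75 in KO mice, with an unadjusted edgeR p of 0.00505 and an adjusted p of 0.9999. Of the regulators, edgeR called none in any comparison. DESeq2 called Nr1i2 in females and for the difference between the sexes, which was -1.37 on the log2 scale with a DESeq2 adjusted p of 0.0200.

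Of 23 enzymes that take their electrons from POR and were tested in females, 1 had a higher and 3 a lower level in KO mice at an unadjusted p under 0.05, a level that 15.6% of all genes reached. Their median log2 fold change was -0.15, beside -0.03 over all genes. Of 22 tested in males, 0 were higher and 3 lower in KO mice at that level, which 4.05% of all genes reached. The median in males was -0.11, beside -0.01 over all genes, and edgeR called 0 of the list in either sex. Cyp8b1, an enzyme of cholic acid synthesis, was at 78.6 ± 14.1 CPM in WT and 21.5 ± 0.378 in KO females, and at 46.3 ± 15.2 and 61.9 ± 16.3 CPM in the males. The difference of its effects between the sexes, -2.29 on the log2 scale, was called by edgeR with an adjusted p of 0.0460, while the female fold change of -1.86 had 0.0674 under edgeR and 2.43e-06 under DESeq2. Cyp2e1, named after its values were seen, was at 3578 ± 294 CPM in WT and 7095 ± 571 in KO females, and its adjusted p was 0.122 under edgeR and 0.000757 under DESeq2. None of the 4 other electron carriers read beside Por reached an unadjusted p under 0.05 in either sex.

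Of 5 further hemoproteins, 3 were higher in KO females at an unadjusted p under 0.05, a level that 15.6% of all genes reached in either direction. The median log2 fold change was 0.85, beside -0.03 over all genes. Suox, a sulfite oxidase, was at 71.5 ± 12.4 CPM in WT and 145 ± 31.5 in KO females. Cycs, the mitochondrial cytochrome c, was at 55.3 ± 27.1 CPM in WT and 127 ± 13.8 in KO females. Their log2 fold changes of 1.04 and 1.20 had edgeR adjusted p-values of 0.109 and 0.156, and DESeq2 gave 0.0159 and 0.0337. In males the median of this list was -0.02, with 0 of its genes reaching that level. These comparisons rest on the same 6 female libraries as that of Alas1, WT female 1091 included.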

How the data were processed

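The authors made QuantSeq 3′ libraries from total liver RNA, sequenced them on a HiSeqX10 and trimmed, mapped and counted the reads on the BaseSpace platform. The submitters' processing notes name STAR, DESeq and the mm10 build, with versions and strand use not given in the sources used here. The authors deposited 1 table of raw counts per gene symbol for each sex, and columns were matched to mice by their titles. Libraries held 1293688 to 4056144 counts, of which 5.68% to 17.9% fell on Rn45s, and intervals cover counting error only.

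Both tables were joined by symbol. edgeR 4.0.16 (R 4.3.3) with its default expression filter, TMM factors and the quasi-likelihood test compared KO with WT in females, in males, in both sexes with sex as a term, and as a difference of effects between the sexes, two-sided, with Benjamini-Hochberg adjustment over the 9465, 8823, 9806 and 9806 genes tested and a threshold of 0.05. All 9 genes passed the filter in every fit. DESeq2 1.42.0 and limma-voom (limma 3.58.1) were alternatives, as were RLE scaling, other filters, leaving out Rn45s and haemoglobin genes, and leaving out each mouse. On simulated counts with 200 genes changed by 2 on the log2 scale, 89.5%, 91.5%, 97.0% and 66.0% were recovered in these comparisons. No mouse number occurs in more than 1 group, so mice were not paired.

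The 9 genes and all lists were chosen with earlier results of these data known. Named beside the 9 genes were Siah2, overlapping genes, the nearest profiles, the red cell markers with the highest level or at 0, and from each list the genes called by edgeR or else the 2 with the smallest unadjusted p under 0.05 in each sex. Symbols and positions were matched to RefSeq on GRCm38.p6, and 8 of the 9 genes had a promoter window there, Fech having none. Of the marker lists' symbols, Hbb-bt, Ahsp, Ighm and Ly6g were not matched. A total of 27 symbols that read as dates stayed in library totals and were not named. Comparisons of male with female levels received no test, apart from the difference of the genotype effects. Some results under these rules are not reported here.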

Additional observations from a re-analysis of the deposited data

How the results depend on the processing

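No paired analysis was possible because the groups share no mouse numbers. Uros and Ppox had 6 to 38 counts a library, and with 3 mice a group the directions listed below turned when a single mouse was left out. Over all genes, edgeR called 0 in females, 0 in males, 1 with both sexes together and 25 for the difference between the sexes. DESeq2 called 303, 6, 2 and 260, and edgeR with no filter beyond 1 count called 484, 29, 71 and 325. Fitted with all 12 mice in 4 groups, edgeR called 427 in females. Leaving out single mice, the counts ranged from 0 to 936 in females, 0 to 3 in males, 0 to 2 with both sexes together and 0 to 522 for the difference, the highest values in females and for the difference being those without WT female 1091. DESeq2 without that mouse, an alternative chosen after seeing the data, called 828 in females, 3 with both sexes together and 647 for the difference.

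Of the 9 genes, edgeR with its default filter and TMM called 0 in each comparison. In the following cases 1 was called, the cause of which was not tested. DESeq2 called 1 in females (Alas1), with or without WT female 1091, and 1 for the difference without that mouse (Alas2). By contrast, limma-voom, RLE scaling, the filter at 10 counts, leaving out Rn45s and haemoglobin genes, and edgeR without any single mouse each called 0 of the 9 where they were run. With no filter beyond 1 count, edgeR called 1 in females and 1 with both sexes together, Alas1 each time, with adjusted p-values of 0.0252 and 0.0228.

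None of the results whose direction turned had been called by edgeR, and they included Ppox in males, -0.61 as reported, and the Alas1 difference, 0.54 as reported. For the difference between the sexes, Urod was 0.11 under limma-voom and 0.0094 with at least 10 counts in every library, beside -0.01 as reported. Ppox, at 0.01 as reported, was -0.24 under limma-voom, -0.00682 with no filter beyond 1 count and -0.0202 without Rn45s and haemoglobin genes. In DESeq2 without WT female 1091, Urod was 0.28 in females, 0.01002 with both sexes together and 0.50 for the difference, Alad was 0.0548 with both sexes together, and for the difference Ppox was -0.20 and Por -0.0282. Leaving out single mice, log2 fold changes ranged as follows. In females Urod ran from -0.48 to 0.27. In males Cpox ran from -0.19 to 0.10, Fech from -0.14 to 0.0167, Por from -0.043 to 0.55, Ppox from -1.06 to 0.24 and Uros from -0.36 to 0.55. With both sexes together Alad ran from -0.23 to 0.044, Alas2 from -0.0871 to 0.21 and Urod from -0.33 to 0.00501. For the difference Alas1 ran from -0.49 to 0.94, Por from -0.25 to 0.64, Ppox from -0.82 to 0.45 and Urod from -0.26 to 0.49.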

Other observations

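Markers of liver cells were also read in the genotype comparisons. Of 10 hepatocyte markers tested in females, 5 were higher and 5 lower in KO mice, with a median log2 fold change of 0.06, and 1 reached an unadjusted p under 0.05, beside 15.6% of all genes in females and 4.05% in males. This was Pck1, a gluconeogenic enzyme, which was at 4228 ± 3193 CPM in WT and 12725 ± 3814 in KO females, and its adjusted p was 0.190 under edgeR and 0.0179 under DESeq2. Of the 11 Kupffer cell markers tested in females, 4 were higher and 7 lower in KO mice, with a median log2 fold change of -0.24, beside -0.03 over all genes. At an unadjusted p under 0.05, 2 of the 11 were lower, namely Vsig4, with a log2 fold change of -1.02, and Csf1r, with -0.73, and edgeR called neither. That share is near the 15.6% of all genes. Of 8 tested in males, 1 was higher and 7 lower in KO mice, with a median of -0.61, beside -0.01 over all genes. At an unadjusted p under 0.05, 1 of the 8 was lower, Marco, with a log2 fold change of -2.49 and 5.19 to 241 CPM among the WT mice. In females Marco had a log2 fold change of 1.38 with an unadjusted edgeR p of 0.0796. KO female 1070 was at 308 CPM. The other KO females, at 29.6 and 48.0 CPM, were below the highest WT female, at 55.1 CPM. Of the 11 endothelial, stellate and bile duct markers tested, 2 were higher and 9 lower in KO females, and 3 higher and 8 lower in KO males. Their medians were -0.18 and -0.32, beside -0.03 and -0.01 over all genes. At an unadjusted p under 0.05, 1 was lower in KO females (Pecam1, log2 fold change -1.13) and 1 in KO males (Spp1, -0.86), and edgeR called neither. Of the 12 lymphocyte and neutrophil markers, only 2 were tested in females, where 0 reached an unadjusted p under 0.05, and 0 were tested in males. The part of these cells in the levels of the heme synthesis genes was not tested.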
